A study of Mus musculus with 12 samples.

Results

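The genes described here are the mouse chemokines and chemokine receptors whose symbols are Ccl, Cxcl, Ccr or Cxcr followed by a number. They were chosen by a rule on symbols, with earlier results of these data known. The rule leaves out 2 receptor genes, and the members make up 57 of the 55471 gene rows of the deposited table. There are 43 ligand rows and 14 receptor rows, with 52 symbols in all, because Ccl19, Ccl21a, Ccl21b and Ccl27 have more than 1 row. RNA from the left kidney of C57/BL6 mice was sequenced in wild type animals and in animals with a knockout of Sprr2f, a small proline-rich protein gene, before and after unilateral ureteral obstruction (UUO), at days 0 and 5. In UUO the ureter of 1 kidney is closed, here with a microvascular clamp on the left side, so that urine backs up into that kidney. The groups were wild type at day 0 (n = 2), wild type at day 5 (n = 3), knockout at day 0 (n = 4) and knockout at day 5 (n = 3). All 12 libraries carry UUO as their treatment, the mice were 8 to 12 weeks old, and the surgical protocol in the labels names only the knockout animals. Whether kidneys at day 0 had surgery is not given in the labels, nor whether replicates came from separate animals, so the p-values measure only the spread between these libraries.

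Chemokines are small secreted proteins that guide the migration of leukocytes and are classed as CC or CXC by the spacing of conserved cysteines near their amino terminus. They bind G protein-coupled receptors, signal through Gi proteins, phosphoinositide 3-kinase and Rac to the actin cytoskeleton, and many ligands share a receptor. In an injured kidney, tubular cells, endothelium, fibroblasts and the arriving leukocytes themselves can all make inflammatory chemokines, whereas ligands such as Cxcl12 are made in healthy tissue.

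The 12 libraries held 16567256 to 19398882 reads of 50 bases. Levels are given as scaled CPM, which is the deposited CPM (reads scaled to a common library total) divided by a library scaling factor (TMM), and 1 read was worth 0.0515 to 0.0604 CPM before scaling. The mitochondrial share was 8.31 to 9.26% over the day 0 libraries, against 3.89 to 4.34% over those of day 5. Sprr2f itself had 482, 447 and 1138 reads in the wild type libraries at day 5 and 0, 39 and 76 in the knockout libraries at day 5, while every day 0 library had 0 to 5 reads, too few to check the labels at that day. The series title speaks of female mice, yet 7 libraries carried Y-linked transcripts and 5 carried Xist. All 4 knockout day 0 libraries were Y-linked, as were replicate 1 of wild type day 0, replicate 3 of wild type day 5 and replicate 2 of knockout day 5. In bulk tissue, a change in the number of cells of a type and a change in RNA per cell cannot be told apart.

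Obstruction was accompanied by higher levels of most measured chemokine genes in both genotypes. A member was tested if it passed a filter on low reads, and called if its adjusted p (limma, Benjamini-Hochberg over 18093 genes) was under 0.05. Of the 57 rows, 38 passed the filter, 29 for ligands and 9 for receptors, and the other 19 had at most 11 reads in any library. In wild type kidneys 28 of the 38 rose at day 5 and 0 fell, where over all genes tested 24.5% rose and 22.6% fell. In knockout kidneys 26 of the 38 rose and 0 fell, against 29.4% and 25.4% of all genes. The calls coincided for 24 members that rose in both genotypes, against 21.2% of all genes. The shares of all genes that rose or fell apply as well to the counts of calls in the groups and lists below.

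The 4 members called in wild type alone were Ccl3, Ccl4, Ccl28 and Cxcl14, the 2 called in knockout alone were Ccl24 and Ccr4, and 8 were called in neither. These splits do not show a difference between genotypes, which was tested separately. The median log2 fold change of the members was 1.86 in wild type and 1.35 in knockout, beside 0.04 and 0.07 over all genes tested. Members called with a log2 fold change of at least 2 numbered 16 in wild type, against 3.71% of all genes, and 15 in knockout, against 2.59%. Every wild type day 5 library lay above both day 0 libraries for 31 members (34.4% of all genes) and below both for Ccl25 and Ccr10 (30.7%). In knockout kidneys the day 5 libraries lay above all 4 day 0 libraries for 26 members (29.5%) and below them for 0 (25.6%). Fold changes are on the log2(scaled CPM + 0.5) scale, which understates the change of genes near 0 at day 0.

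**Figure D1:**
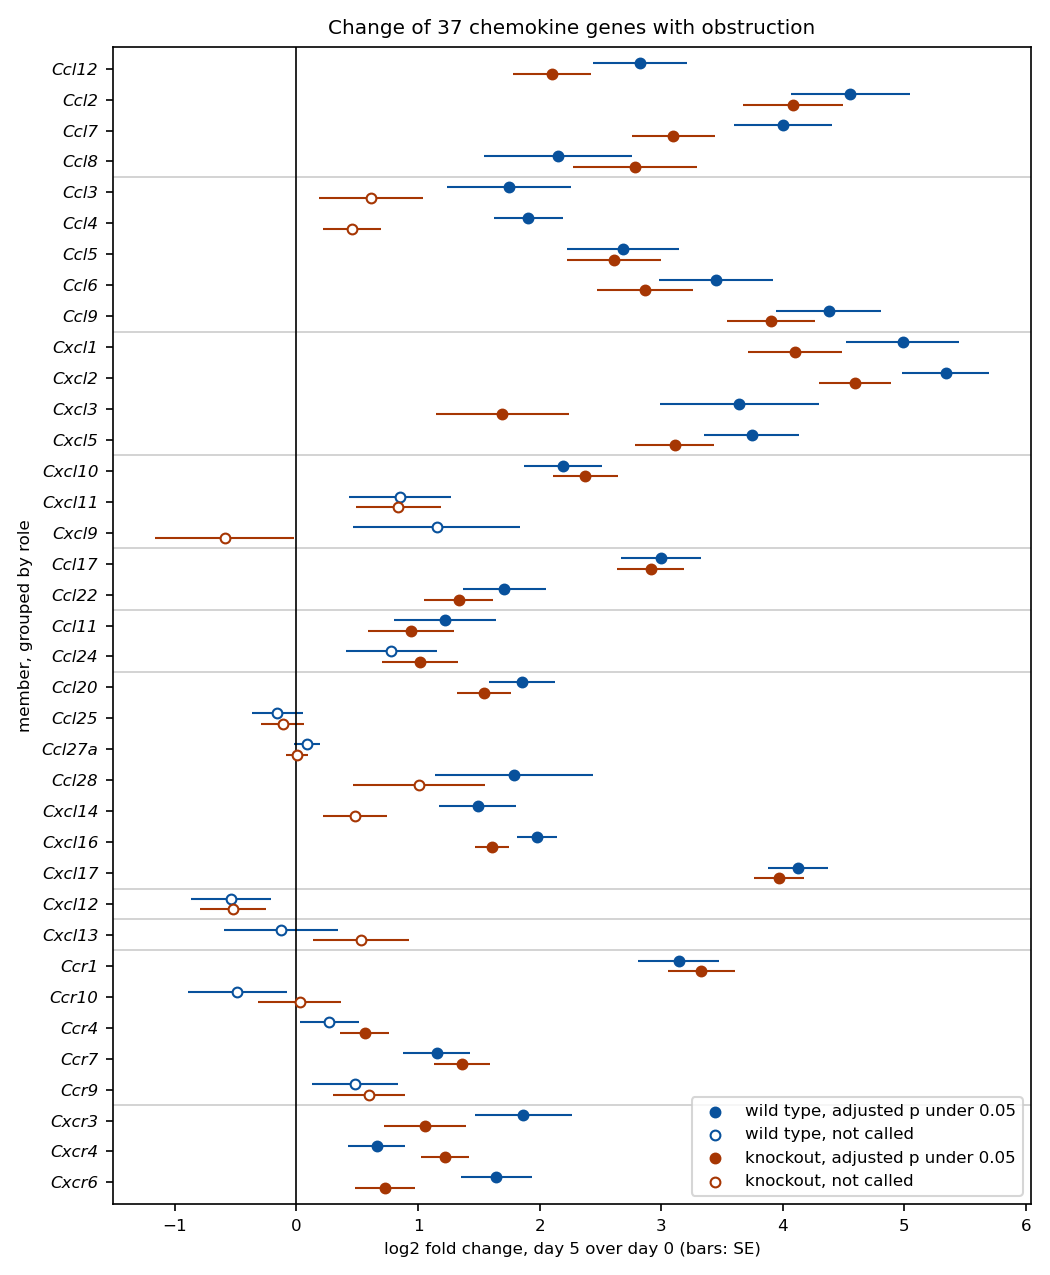
Log2 fold change from day 0 to day 5 of tested members in wild type (blue) and knockout (brown) kidneys, on the log2(scaled CPM + 0.5) scale, with bars for the SE; filled points have an adjusted p under 0.05 and grey lines separate the roles. All filled points of both genotypes lie to the right of 0.

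The CC ligands listed here as monocyte-attracting, Ccl2, Ccl7, Ccl8 and Ccl12, all rose in both genotypes. Their median log2 fold change was 3.41 in wild type and 2.94 in knockout, and their role as attractants was not tested. Together with the eotaxin Ccl11 these ligands lie within chr11:82035571-82305690 (GRCm38), where 5 of 5 tested members rose in each genotype. Of all genes tested, 24.5% rose in wild type and 29.4% in knockout. Ccl2 (chr11:82035571-82037453, plus strand), also called MCP-1 and the best known monocyte attractant, measured 0.303 and 1.93 scaled CPM at wild type day 0 and 27.1, 38.4 and 32.6 at day 5. In knockout kidneys it measured 1.92, 0.835, 1.04 and 1.67 at day 0 and 27.6, 57.4 and 17.3 at day 5. The day 5 libraries stood above every day 0 library in both genotypes, and the knockout day 5 group spread over a wider range than the wild type group. Its log2 fold change was 4.56 ± 0.49 (SE; adjusted p = 9.01e-06) in wild type and 4.09 ± 0.41 (adjusted p = 3.56e-06) in knockout. The wild type value was 3.76 without replicate 1 of day 0 and 5.36 without replicate 2.

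Ccl7 (MCP-3) was nearly silent before obstruction, with 0.121 and 0.0604 scaled CPM in wild type and 0.556, 0.531, 0.389 and 0.119 in knockout. At day 5 it reached 7.75, 10.4 and 8.94 in wild type and 7.8, 12.8 and 3.39 in knockout, so the groups did not overlap. The change was 4.00 ± 0.40 log2 (adjusted p = 5.44e-06) in wild type and 3.10 ± 0.34 (7.3e-06) in knockout. Taken as a ratio of reads, wild type Ccl7 went from 3 to 574 reads, 99.1-fold, with an exact 95% interval of 33.7 to 482 that covers counting error only.

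Ccl12, the mouse ligand MCP-5, measured 0.242 and 0.846 scaled CPM at wild type day 0 and 10.8, 5.74 and 4.56 at day 5. Its knockout values were 1.36, 0.683, 0.389 and 0.595 at day 0 and 5.55, 4.93 and 3.76 at day 5. The day 5 libraries of both genotypes stood clear of the day 0 libraries. Ccl12 rose by 2.83 ± 0.38 log2 in wild type (adjusted p = 6.05e-05) and 2.10 ± 0.32 in knockout (0.000124).

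Ccl8 (MCP-2) measured 0.484 and 1.69 scaled CPM at wild type day 0 and 4.02, 6.75 and 7.93 at day 5, and 0.865, 0.38, 0.519 and 0.536 at knockout day 0 and 8.2, 16.8 and 2.09 at day 5. Replicate 2 of the knockout day 5 group held the highest level of all 12 libraries and replicate 3 of that group the lowest day 5 level. The log2 fold change was 2.15 ± 0.61 (adjusted p = 0.0109) in wild type and 2.78 ± 0.51 (0.000508) in knockout. Without replicate 1 of wild type day 0, the wild type change was 1.57 with an adjusted p of 0.121, and the call was lost. The knockout change was 2.16 without replicate 2 of day 5 and 3.52 without replicate 3, both called.

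Monocyte and macrophage markers moved with these ligands: 11 of 12 rose in wild type and 10 of 12 in knockout, and 0 fell. Their summed level was 219 to 233 scaled CPM at wild type day 0, 1041 to 1317 at wild type day 5, 229 to 303 at knockout day 0 and 1091 to 1566 at knockout day 5. Lyz2, the lysozyme of macrophages, rose by 3.29 ± 0.26 log2 in wild type and 3.32 ± 0.21 in knockout. Each of the 12 markers had at least 10 reads in every library, and the part of these cells in the ligand levels was not tested.

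A set of inflammatory CC ligands forms a neighbouring group at chr11:83525778-83664683, in which Ccl5, Ccl6 and Ccl9 rose in both genotypes and Ccl3 and Ccl4 were called in wild type only. The median change of the 5 was 2.69 log2 in wild type and 2.61 in knockout. Ccl9 (chr11:83572919-83578636, minus strand), a ligand of CCR1 made by mouse myeloid cells, measured 1.88 and 1.69 scaled CPM at wild type day 0 and 37.6, 43.4 and 63.4 at day 5. In knockout kidneys it measured 4.63, 2.05, 2.2 and 1.79 at day 0 and 35.4, 87.8 and 28 at day 5. The lowest day 5 library was several times the highest day 0 library in both genotypes. The change was 4.38 ± 0.43 log2 in wild type (adjusted p = 4.49e-06) and 3.90 ± 0.36 in knockout (1.78e-06).

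Ccl6, another CCR1 ligand of mouse myeloid cells, measured 4.78 and 4.29 scaled CPM at wild type day 0 and 40.2, 57.9 and 69.2 at day 5, and 9.27, 5.16, 4.54 and 6.61 at knockout day 0 and 38.4, 111 and 26 at day 5. As with Ccl9, replicate 2 of knockout day 5 was the highest library and the groups did not overlap. Ccl6 rose by 3.45 ± 0.47 log2 in wild type (adjusted p = 6.08e-05) and 2.87 ± 0.39 in knockout (5.05e-05), the latter 2.27 without replicate 2 of day 5. Ccl5 (RANTES), which draws T cells and monocytes, measured 1.21 and 7.07 at wild type day 0 and 19.6, 25.1 and 23.6 at day 5. Its knockout values were 4.33, 2.66, 1.88 and 3.04 at day 0 and 17.5, 22.2 and 20.9 at day 5. The 6 day 5 libraries lay close together, while the pair of wild type day 0 libraries stood far apart. Ccl5 rose by 2.69 ± 0.46 log2 in wild type (0.000388) and 2.61 ± 0.39 in knockout (9.35e-05). The wild type value was 1.61 without replicate 1 of day 0 and 3.76 without replicate 2, both called.

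Ccl3 and Ccl4, the macrophage inflammatory proteins MIP-1 alpha and beta, were low in every group. Ccl4 measured 0.303 and 0.121 scaled CPM at wild type day 0 and 1.84, 2.07 and 2.59 at day 5, and 0.865, 0.531, 0.324 and 0.357 at knockout day 0 and 0.749, 1.38 and 0.604 at day 5. The wild type groups were apart and the knockout groups overlapped. Ccl4 rose by 1.91 ± 0.28 log2 in wild type (adjusted p = 0.000131), and its knockout change of 0.46 ± 0.24 did not pass (0.12), although it did with the sex-chromosome pattern as a covariate (0.77, adjusted p = 0.0165).

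Ccl3 measured 0.242 and 1.03 scaled CPM at wild type day 0 and 1.47, 4.38 and 4.29 at day 5, and 0.742, 1.29, 0.324 and 0.238 at knockout day 0 and 1.19, 2.02 and 0.557 at day 5. Its wild type change was 1.75 ± 0.51 log2 (adjusted p = 0.0127), which fell to 1.23 (0.144) without replicate 1 of wild type day 0. The knockout change of 0.61 ± 0.43 did not pass the test (0.241). The knockout libraries of the 2 days overlapped.

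The ELR CXC ligands had the highest median change of the ligand groups on the log2(scaled CPM + 0.5) scale. They carry a Glu-Leu-Arg motif and draw neutrophils. All 4 tested, Cxcl1, Cxcl2, Cxcl3 and Cxcl5, rose in both genotypes, with a median of 4.36 log2 in wild type and 3.61 in knockout, and they lie together at chr5:90759360-90905938. Cxcl1 (KC; chr5:90891241-90893115, plus strand) measured 2.54 and 2.12 scaled CPM at wild type day 0 and 89.3, 135 and 58 at day 5. In knockout kidneys Cxcl1 measured 1.85, 7.29, 4.99 and 6.67 at day 0 and 68.9, 130 and 77.7 at day 5. Every day 5 library was far above every day 0 library, and the ranges of the 2 genotypes at day 5 lay over each other. The change was 4.98 ± 0.46 log2 (adjusted p = 2.74e-06) in wild type and 4.10 ± 0.39 (2.08e-06) in knockout.

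Cxcl2 (MIP-2; chr5:90903871-90905938, plus strand) measured 0.605 and 0.665 scaled CPM at wild type day 0 and 38.1, 57.3 and 43 at day 5. Its knockout values were 0.927, 1.06, 1.1 and 0.595 at day 0 and 17.9, 54.4 and 38.2 at day 5. The day 0 libraries were tightly grouped in both genotypes, and replicate 1 of knockout day 5 was the lowest of the 6 day 5 libraries. At 5.34 ± 0.36 log2 (adjusted p = 2.87e-07) in wild type and 4.59 ± 0.30 (1.2e-07) in knockout, Cxcl2 had the largest fitted change of the 38 tested members in each genotype on this scale, which understates genes nearly without reads at day 0 such as Cxcl3, Cxcl5 and Ccl7.

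Cxcl5, an ELR ligand made largely by epithelium, had 0 reads in both wild type day 0 libraries and 1 read in all 4 knockout day 0 libraries together. At day 5 it measured 4.82, 4.53 and 10.7 scaled CPM in wild type and 2.42, 7.19 and 3.39 in knockout. Against a floor of 3 reads over the wild type day 0 group, the 437 reads at day 5 were at least 75.5-fold higher. In knockout kidneys the ratio was 262, with an exact 95% interval of 46.6 to 10369 for counting error. The fitted changes were 3.74 ± 0.39 log2 (adjusted p = 6.98e-06) and 3.11 ± 0.33 (5.3e-06), values that depend on the added 0.5 CPM and bound nothing.

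Cxcl3 (chr5:90786103-90789600, plus strand) had 1 read at wild type day 0 and 2 at knockout day 0, each over all libraries of the group. At day 5 its scaled CPM was 2.22, 7.66 and 12.5 in wild type and 0.529, 4.24 and 0.557 in knockout. The knockout level thus rested on replicate 2, which held most of the reads of its group. The ratio of reads was 251 in wild type (exact 95% interval 44.9 to 9945) and in knockout 52.5 (14.2 to 439) in knockout. The fitted change was 3.64 ± 0.65 log2 (adjusted p = 0.000545) in wild type and 1.69 ± 0.55 (0.0191) in knockout, and the knockout call was lost without replicate 2 of day 5 (0.96, adjusted p = 0.0936). The wild type value was 4.26 without replicate 1 of day 5. Of the 50-base stretches of Cxcl3 4.24% and of Cxcl2 5.84% recur in another gene, so a small share of reads could be split between genes.

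Promoter sequence is shown for Cxcl1, Cxcl2 and Cxcl3 because these neighbours rose together and their promoters share a match to the letters bound by NF-kB factors. RefSeq promoters of GRCm38.p6, each of 300 bases from 250 before to 50 after the gene start, were matched to 35 of the 52 symbols and gave 42 member promoters. The stretches below are the last 130 bases before the RefSeq start, written 5′ to 3′ on the strand of the gene, with capitals for matches to GGGNNNTTCC on either strand. Distances are counted from that start. The gene positions given above are from GENCODE, whose starts differ, so the Cxcl1 and Cxcl2 stretches end within those positions. They lie at chr5:90891115-90891244 (Cxcl1), chr5:90903769-90903898 (Cxcl2) and chr5:90785971-90786100 (Cxcl3), all on the plus strand.
Cxcl1: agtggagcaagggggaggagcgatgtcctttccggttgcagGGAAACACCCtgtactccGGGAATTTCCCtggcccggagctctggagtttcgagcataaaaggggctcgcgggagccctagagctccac
Cxcl2: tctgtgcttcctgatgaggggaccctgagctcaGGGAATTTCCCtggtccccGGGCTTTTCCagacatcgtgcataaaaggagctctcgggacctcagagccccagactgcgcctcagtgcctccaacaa
Cxcl3: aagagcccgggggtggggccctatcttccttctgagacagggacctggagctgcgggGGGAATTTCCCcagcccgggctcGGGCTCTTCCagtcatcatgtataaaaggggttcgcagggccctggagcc
Each of the 3 holds GGGAATTTCC, which also matches on the other strand 1 base further on, starting 71 bases before the start in Cxcl1, 97 in Cxcl2 and 73 in Cxcl3. Each also holds another match nearby, GGAAACACCC in Cxcl1 (a match on the minus strand), GGGCTTTTCC in Cxcl2 and GGGCTCTTCC in Cxcl3. Of the 42 member promoters 9 hold this motif (21.4%), against 5.56% of all 32851 promoters, and the 9 belong to Ccl1, Ccl9, Ccl20, Ccr3, Ccr6, Cxcl1, Cxcl2, Cxcl3 and Cxcl10. A match describes the letters of the window and is not evidence of binding, and Ccl1, Ccr3 and Ccr6 had too few reads to test.

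Neutrophil markers were higher at day 5 as well. Of 10 markers, 5 passed the filter, all 5 rose in wild type and 4 rose in knockout, among them the alarmin gene S100a9 with 4.10 ± 0.63 log2 in wild type and 2.50 ± 0.52 in knockout. Their summed level was 3.39 to 4.65 scaled CPM at wild type day 0, 50.8 to 78.0 at wild type day 5, 2.22 to 2.89 at knockout day 0 and 13.8 to 44.3 at knockout day 5. The 5 markers not tested, Ly6g, Mpo, Elane, Camp and Ngp, had at most 6 reads in any library. The part of neutrophils in the ELR ligand levels was not tested.

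The ligands of CXCR3, which draw activated T and NK cells and are known as interferon-inducible genes, did not move as a block. They are neighbours at chr5:92321347-92365485, yet only Cxcl10 was called, in both genotypes. Cxcl10 (IP-10; chr5:92346638-92348889, minus strand) measured 4.66 and 5.8 scaled CPM at wild type day 0 and 28.7, 31 and 18.6 at day 5, and 7.54, 3.8, 5.06 and 5.06 at knockout day 0 and 19.1, 30.7 and 42.2 at day 5. The days were apart in each genotype. It rose by 2.19 ± 0.32 log2 in wild type (adjusted p = 0.000116) and 2.38 ± 0.27 in knockout (1.02e-05). Its exons overlap Art3 on the other strand, which did not pass the test (0.01 ± 0.24 and 0.11 ± 0.20 log2).

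Cxcl9 (MIG) measured 1.88 and 20.4 scaled CPM at wild type day 0 and 11.6, 17.7 and 17 at day 5. In knockout kidneys it measured 13.7, 5.62, 3.89 and 9.58 at day 0 and 4.23, 5.08 and 4.92 at day 5. The highest library of all 12 was thus a day 0 library, and the pair of wild type day 0 libraries differed by more than the day 5 libraries did. The log2 fold change was 1.16 ± 0.69 in wild type (adjusted p = 0.189) and -0.59 ± 0.57 in knockout (0.406). The wild type value turned to -0.42 (adjusted p = 0.553) without replicate 1 of day 0, and was 2.72 and passed the test without replicate 2. Within the Y-linked pair of wild type libraries the difference was 2.88, and within the Xist libraries it was -0.49.

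Cxcl11 (I-TAC), annotated as a polymorphic pseudogene in this genome, measured 0.242 and 1.81 scaled CPM at wild type day 0 and 1.7, 2.32 and 1.62 at day 5, and 0.865, 0.987, 0.324 and 0.476 at knockout day 0 and 1.32, 2.22 and 1.16 at day 5. Its changes of 0.85 ± 0.42 (adjusted p = 0.114) and 0.84 ± 0.35 (0.059) did not pass. The wild type value was 0.026 without replicate 1 of day 0, and 1.67 and called (0.005) without replicate 2. The knockout value was called when 1 of the wild type day 0 libraries was left out of the shared spread (0.82 each, adjusted p = 0.0173 and 0.0174), and also in the fit of its 2 groups alone, in the Y-linked libraries and with library size as the only scaling. The knockout day 5 libraries were above all knockout day 0 libraries, while the wild type days overlapped.

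The Cxcl10 promoter is shown because it holds all 3 motifs searched, while the promoter of Cxcl9 held only a match to the AP-1 type motif after its start. Capitals mark, from 5′ to 3′ on the gene's strand, the interferon response type motif TTTCNNTTTC (here on the minus strand, GAAAGTGAAA), GGGNNNTTCC at GGGAAATTCC and GGGGACTTCC, and the AP-1 type motif TGANTCA. The stretch is chr5:92348950-92349109, minus strand, from 220 to 61 bases before the start.
Cxcl10: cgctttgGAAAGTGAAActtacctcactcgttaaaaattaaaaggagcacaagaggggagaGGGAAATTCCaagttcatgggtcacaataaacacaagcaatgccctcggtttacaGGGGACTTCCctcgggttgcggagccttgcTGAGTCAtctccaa
TTTCNNTTTC was in 3 of the 42 member promoters (7.14%; Ccl19, Cxcl10 and Cxcl14) against 3.44% of all, and TGANTCA was in 9 of 42 (21.4%) against 7.81%. TGANTCA reads the same on both strands, so its matches were counted on the plus strand only. It overlaps neither of the other motifs in the stretch printed.

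T cell markers were higher at day 5, as was Cxcl10. Of 10 markers, 9 rose in wild type and 8 in knockout, with summed levels of 8.53 to 9.31 scaled CPM at wild type day 0, 21.7 to 41.4 at wild type day 5, 9.82 to 11.6 at knockout day 0 and 20.4 to 36.1 at knockout day 5. Of 5 tested NK cell markers, 3 rose in wild type and 5 in knockout, with summed levels of 1.93 to 2.18, 5.56 to 5.81, 1.30 to 3.26 and 4.83 to 6.32 in the same order. Ifng, the main inducer of this ligand group, had at most 4 reads in any library and was not tested. The part of T and NK cells in these levels was not tested.

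Ccl17 and Ccl22, the CCR4 ligands of dendritic cells and alternatively activated macrophages, lie at chr8:94745590-94812036 and both rose in each genotype. Ccl17 (TARC) measured 0.666 and 0 scaled CPM at wild type day 0 and 4.77, 5.95 and 6.18 at day 5, and 0.556, 0.228, 0.454 and 0.119 at knockout day 0 and 6.75, 5.12 and 5.29 at day 5. The 6 day 5 libraries were close together and far above all day 0 libraries. It rose by 3.00 ± 0.33 log2 in wild type (adjusted p = 1.15e-05) and 2.91 ± 0.28 in knockout (2.31e-06). The wild type value was 3.62 without replicate 1 of day 0 and 2.39 without replicate 2.

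Ccl22 (MDC) measured 0.484 and 1.21 scaled CPM at wild type day 0 and 3.31, 4.08 and 3.86 at day 5, and 1.73, 0.456, 0.843 and 0.714 at knockout day 0 and 3.53, 2.17 and 3.3 at day 5. The days did not overlap in either genotype, though the gap was narrow in knockout kidneys. Ccl22 rose by 1.71 ± 0.34 log2 (adjusted p = 0.00119) and 1.33 ± 0.29 (0.00159). Of 6 dendritic cell markers, 5 rose in each genotype, with summed levels of 17.7 to 19.5 scaled CPM at wild type day 0, 59.1 to 73.8 at wild type day 5, 18.0 to 25.9 at knockout day 0 and 52.1 to 73.3 at knockout day 5. The part of these cells in the ligand levels was not tested.

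The eosinophil attractants Ccl11 and Ccl24, both ligands of CCR3, were low. Ccl11 (eotaxin) measured 0.121 and 0.544 scaled CPM at wild type day 0 and 0.992, 0.806 and 2.89 at day 5, and 0.556, 0.152, 0.519 and 0.119 at knockout day 0 and 0.749, 1.63 and 0.929 at day 5. Its changes of 1.22 ± 0.42 log2 in wild type (adjusted p = 0.0292) and 0.94 ± 0.35 in knockout (0.0367) passed the test. The wild type call was lost without replicate 1 of day 0 (0.85, adjusted p = 0.231) or replicate 3 of day 5 (0.79, 0.101). The knockout call was lost without replicate 2 or 4 of day 0 (adjusted p = 0.0969 and 0.0992) or replicate 2 or 3 of day 5 (0.137 and 0.061).

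Ccl24 (eotaxin-2) measured 0.0605 and 0.121 scaled CPM at wild type day 0 and 0.142, 0.957 and 0.613 at day 5, and 0.556, 0.0759, 0.324 and 0.536 at knockout day 0 and 1.19, 1.92 and 0.743 at day 5. The change of 0.78 ± 0.38 log2 in wild type did not pass (adjusted p = 0.106), although it did without replicate 1 of day 5 (1.10, adjusted p = 0.026). The knockout change of 1.02 ± 0.31 passed (0.015), but not without replicate 2 of day 0 (0.83, 0.0505) or replicate 2 of day 5 (0.77, 0.0705).

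Ligands known from epithelia and mucosa behaved unequally: Ccl20, Cxcl16 and Cxcl17 rose in both genotypes, Ccl28 and Cxcl14 were called in wild type only, and Ccl25 and Ccl27a were called in neither. Cxcl17 (chr7:25400053-25412886, minus strand), a ligand of mucosal surfaces, measured 0.121 scaled CPM in each wild type day 0 library and 11.2, 10.7 and 9.16 at day 5. In knockout kidneys it measured 0.0618, 0, 0 and 0.357 at day 0 and 10.1, 7.74 and 8.55 at day 5. Within each day the libraries lay close together, far apart from those of the other day. The change was 4.12 ± 0.25 log2 in wild type (adjusted p = 1.55e-07) and 3.97 ± 0.21 in knockout (3.41e-08), the smallest adjusted p-values of the 38 members. The ratio of reads was 85.4 (exact 95% interval 33.2 to 314) in wild type and 77.7 (37.5 to 194) in knockout.

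Cxcl16 (chr11:70453983-70459984, minus strand), made both as a membrane-bound and a soluble ligand of CXCR6, was already abundant before obstruction. It measured 36.1 and 43.3 scaled CPM at wild type day 0 and 165, 146 and 161 at day 5, and 50.2, 48.4, 52.3 and 47.9 at knockout day 0 and 132, 206 and 130 at day 5. Its libraries were tightly grouped except for replicate 2 of knockout day 5. Cxcl16 rose by 1.98 ± 0.16 log2 in wild type (adjusted p = 1.12e-06) and 1.61 ± 0.14 in knockout (8.46e-07). Its exons overlap those of Zmynd15 on the other strand, which also rose (1.69 ± 0.12 and 1.76 ± 0.10 log2), and without a stated strand of counting the reads of the 2 genes cannot be told apart.

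Ccl20, the ligand of CCR6, had 0 reads at wild type day 0 and measured 1.32, 2.02 and 0.789 scaled CPM at day 5, at least 14.9-fold higher against a floor of 3 reads over the group. In knockout kidneys it measured 0, 0.152, 0 and 0.119 at day 0 and 1.06, 1.43 and 0.975 at day 5, a ratio of reads of 17.7 (exact 95% interval 6.61 to 66.5). All day 5 libraries stood above all day 0 libraries. The fitted changes were 1.85 ± 0.27 log2 (adjusted p = 0.000103) and 1.54 ± 0.22 (8.45e-05).

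Cxcl14, a ligand of many epithelia without a settled receptor, measured 36.9 and 22.2 scaled CPM at wild type day 0 and 107, 71.6 and 70.4 at day 5, and 59.5, 37.1, 38 and 38.7 at knockout day 0 and 57.6, 40.8 and 89.4 at day 5. The wild type days were apart and the knockout days overlapped. Its change was 1.49 ± 0.32 log2 in wild type (adjusted p = 0.00184), but 0.48 ± 0.26 in knockout (0.142), where leaving out replicate 2 of day 5 gave 0.75 (0.0276). Within Y-linked libraries the differences were 0.92 in wild type and -0.06 in knockout, and within the wild type Xist libraries 1.95.

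Ccl28, a mucosal ligand of CCR10, measured 6.42 and 2.3 scaled CPM at wild type day 0 and 19.4, 11.7 and 14 at day 5, and 6.74, 25.8, 6.94 and 8.04 at knockout day 0 and 52.2, 14 and 11.8 at day 5. A single library was far above its group on each knockout day. The change of 1.79 ± 0.65 log2 in wild type (adjusted p = 0.0376) was lost without replicate 2 of day 0 (1.14, 0.284) or without any of replicates 1, 2 and 3 of day 5 (1.60, 1.95 and 1.83, adjusted p = 0.0997, 0.0508 and 0.0652). It was also lost with edgeR (adjusted p = 0.0779), DESeq2 (0.0699) and limma-voom (0.122) on the recovered reads. The knockout change of 1.01 ± 0.54 (0.135) passed without replicate 2 of day 0 (1.43, 0.0287).

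Ccl25, a ligand of CCR9, measured 9.62 and 9.73 scaled CPM at wild type day 0 and 9.26, 9.07 and 7.62 at day 5, and 7.6 to 13.2 over the 7 knockout libraries. Its change of -0.16 ± 0.21 log2 in wild type (adjusted p = 0.571) and -0.11 ± 0.18 in knockout (0.612) turned positive, 0.24 and 0.32, with library size as the only scaling, where the median gene moved up by 0.37 and 0.38. Its exons overlap Elavl1 on the other strand. Ccl27a, a ligand of CCR10, stayed within 18.1 to 22.6 scaled CPM in all 12 libraries. Its change was 0.09 ± 0.11 in wild type (0.541) and 0.00 ± 0.09 in knockout (0.974), the latter -0.04 with RLE scaling. The exons of Ccl27a overlap Il11ra1 on the other strand, which fell (-0.67 ± 0.11 and -0.68 ± 0.09), and 45.0% of its 50-base stretches occur in another gene, so its level is uncertain.

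Cxcl12 (SDF-1; chr6:117168535-117181367, plus strand), the ligand of CXCR4 that healthy stroma makes, was the member with most reads before obstruction. It measured 194 and 139 scaled CPM at wild type day 0 and 159, 99.4 and 91.4 at day 5, and 237, 186, 199 and 195 at knockout day 0 and 154, 83.7 and 219 at day 5. The days overlapped in both genotypes, and the 2 Y-linked day 5 libraries were the lowest of their groups. The change was -0.54 ± 0.33 log2 in wild type (adjusted p = 0.199) and -0.52 ± 0.27 in knockout (0.123). Within Y-linked libraries the differences were -1.08 in wild type and -1.27 in knockout, and within the wild type Xist libraries -0.15. The knockout value was -0.84 (adjusted p = 0.017) without replicate 3 of day 5 and -0.82 (0.0246) with the sex-chromosome pattern as a covariate.

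Of the ligands that guide lymphocytes into lymphoid tissue, only Cxcl13 passed the filter. It had 0 to 24 reads per library, with levels of 0.787 and 0.0604 scaled CPM at wild type day 0, 0.189, 0.453 and 0.219 at wild type day 5, 0, 0, 0 and 0.298 at knockout day 0 and 0, 1.18 and 0.139 at knockout day 5. Its changes of -0.12 ± 0.47 log2 (adjusted p = 0.851) and 0.53 ± 0.39 (0.27) did not pass, and the wild type sign turned with library size as the only scaling (0.03). The knockout value was 0.0085 without replicate 2 of day 5, and was called with the sex-chromosome pattern as a covariate (1.09, adjusted p = 0.0245) and in the Y-linked libraries alone (1.52, 0.00685). Ccl19 had 0 to 11 reads on its main row. A second Ccl19 row, both Ccl21a rows, all 3 Ccl21b rows, Ccl21c, Ccl27b and 1 of the 2 Ccl27 rows had 0 reads in all 12 libraries, and the other Ccl27 row had 1. Of the 50-base stretches of Ccl21a, Ccl27b and Ccl19, 71.6%, 98.1% and 52.0% recur in another gene, as do all of those of Ccl21b, so 0 reads on these rows do not show that the genes were silent. The other untested members were the ligands Ccl1 (0 to 5 reads), Ccl26 (0 to 1) and Cxcl15 (0 to 2).

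**Figure D2:**
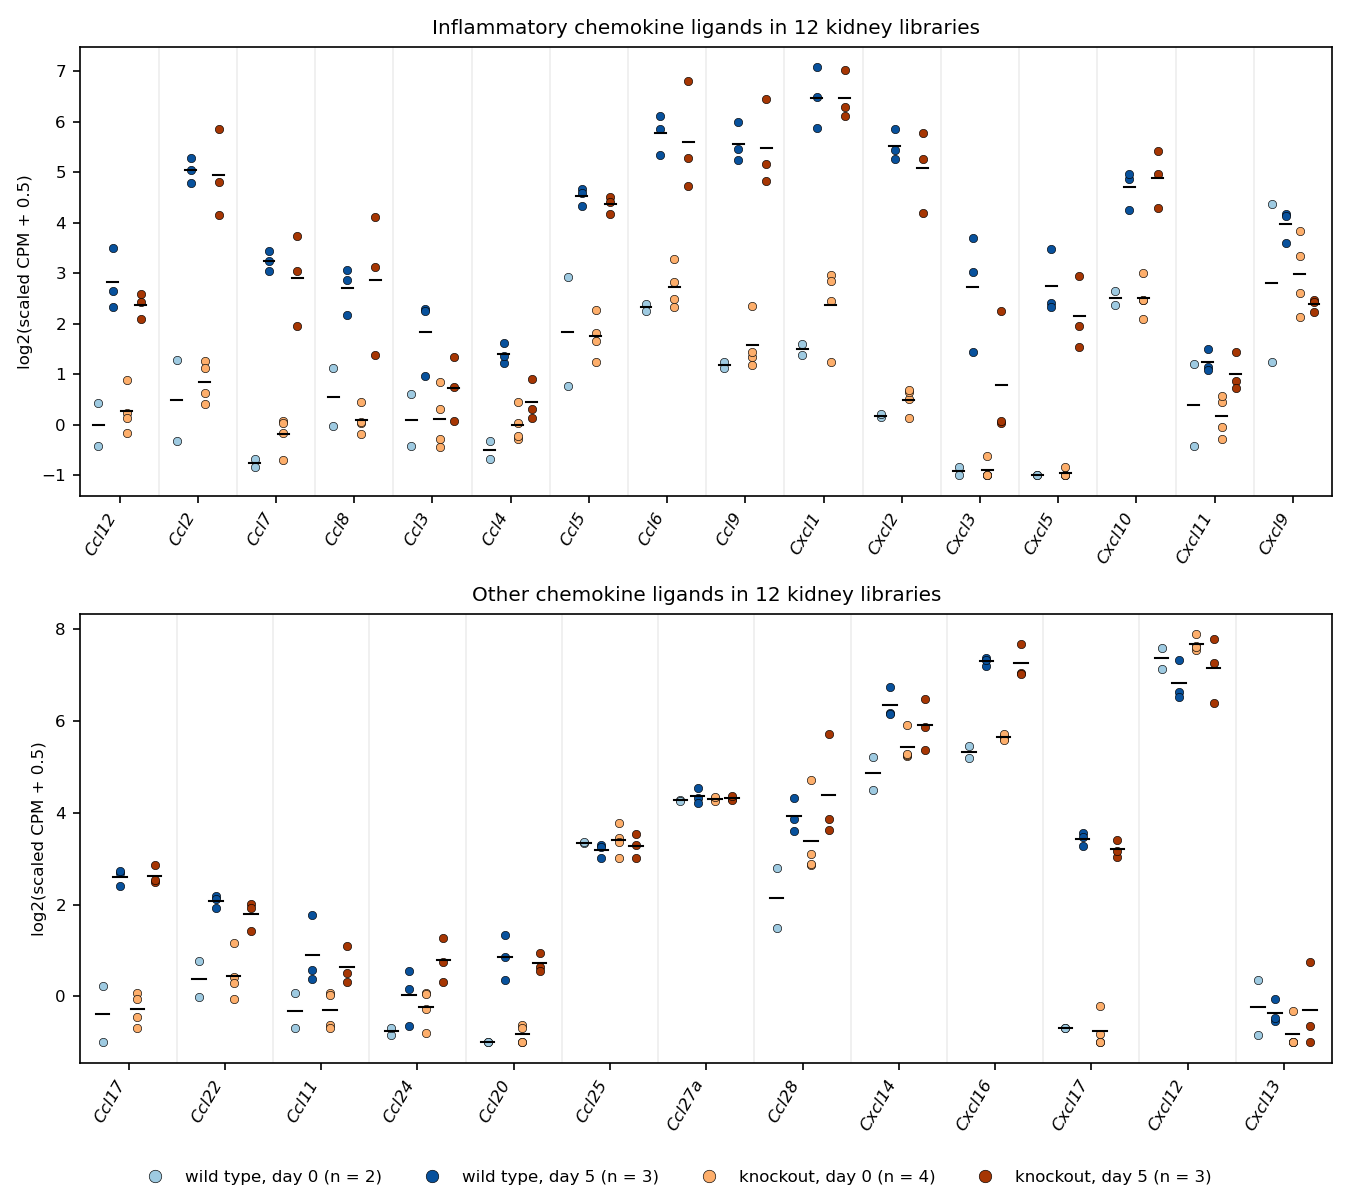
Level of the 29 tested ligands in the 12 libraries, as log2(scaled CPM + 0.5), with a point for each library and a bar for the group mean; pale blue and dark blue are wild type at day 0 and day 5, pale and dark orange the knockout. Cxcl1, Cxcl2 and Cxcl17 show wide gaps between days, whereas Ccl25, Ccl27a and Cxcl12 do not.

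Among the receptors, 6 of 9 tested rose in wild type, with a median of 1.15 log2 over the 9, and 7 of 9 rose in knockout, with a median of 1.06. Of all genes tested, 24.5% rose in wild type and 29.4% in knockout, with medians of 0.04 and 0.07 log2. Ccr1 (chr9:123962124-123968692, minus strand), a receptor of monocytes and neutrophils, measured 0.545 and 1.15 scaled CPM at wild type day 0 and 11.2, 9.52 and 12.8 at day 5, and 0.309, 0.38, 0.259 and 0.0595 at knockout day 0 and 5.78, 11.6 and 4.97 at day 5. All knockout day 0 libraries lay below both wild type day 0 libraries. Ccr1 rose by 3.14 ± 0.33 log2 in wild type (adjusted p = 7.81e-06) and 3.33 ± 0.28 in knockout (7.32e-07).

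Cxcr3, the receptor of Cxcl9 to Cxcl11 on activated T cells, measured 0.363 and 0.544 scaled CPM at wild type day 0 and 4.54, 3.22 and 1.71 at day 5, and 1.05, 0.456, 0.843 and 0.655 at knockout day 0 and 3.26, 0.986 and 2.51 at day 5. Cxcr3 lies on the X chromosome (chrX:101731535-101734269, minus strand), and within each genotype the Y-linked day 5 library was the lowest. The part of sex in its level was not tested. The change was 1.87 ± 0.40 log2 (adjusted p = 0.00198) in wild type and 1.06 ± 0.34 (0.0175) in knockout. The knockout call was lost without replicate 2 of day 0 (0.92, adjusted p = 0.0519) or replicates 1 or 3 of day 5 (0.78 and 0.94, adjusted p = 0.0916 and 0.0635), and with the sex-chromosome pattern as a covariate (0.49, 0.152).

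Cxcr6, the receptor of Cxcl16 on memory and tissue T cells, measured 0.363 and 0.242 scaled CPM at wild type day 0 and 3.5, 1.71 and 1.27 at day 5, and 1.17, 0.911, 0.778 and 0.774 at knockout day 0 and 1.59, 1.97 and 1.9 at day 5. The days did not overlap in either genotype. It rose by 1.64 ± 0.29 log2 in wild type (adjusted p = 0.000538) and 0.73 ± 0.25 in knockout (0.0245). The knockout call was lost without replicate 3 or 4 of day 0 or replicate 2 or 3 of day 5 (0.66 to 0.70, adjusted p = 0.0609 to 0.0652), and with the sex-chromosome pattern as a covariate (0.62, 0.0944).

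Cxcr4 (chr1:128588199-128592293, minus strand), the receptor of Cxcl12 and the member receptor with most reads at day 0, measured 5.27 and 7.07 scaled CPM at wild type day 0 and 9.88, 12.5 and 7.89 at day 5. Its knockout values were 3.83, 5.62, 4.8 and 5.71 at day 0 and 10.5, 11.3 and 15.2 at day 5. The day 5 libraries were higher throughout, by a narrow margin in wild type. The change was 0.66 ± 0.23 log2 (adjusted p = 0.0342) in wild type and 1.22 ± 0.20 (0.000182) in knockout. The wild type call was lost without replicate 1 of day 0 (0.46, adjusted p = 0.233) or replicate 1 or 2 of day 5 (0.66 and 0.50, adjusted p = 0.0659 and 0.121).

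Ccr7, which leads dendritic cells and naive T cells to lymph nodes, measured 0.363 and 0.725 scaled CPM at wild type day 0 and 2.27, 2.07 and 1.18 at day 5, and 0.803, 0.607, 0.454 and 0.476 at knockout day 0 and 2.12, 3.01 and 1.81 at day 5. It rose by 1.15 ± 0.28 log2 (adjusted p = 0.00413; 0.90 and 0.0608 without replicate 1 of wild type day 0) and 1.36 ± 0.23 (0.000296). Ccr4, the receptor of Ccl17 and Ccl22, measured 0.121 in each wild type day 0 library and 0.189, 0.403 and 0.175 at day 5, and 0.185, 0, 0.0648 and 0.179 at knockout day 0 and 0.529, 0.493 and 0.186 at day 5. At this depth these levels are 0 to 12 reads per library. Its change of 0.27 ± 0.24 in wild type (0.388) did not pass, and 0.56 ± 0.20 in knockout (0.0318) did, though not without replicate 2 or 3 of day 0 (0.47 and 0.53, adjusted p = 0.0895 and 0.0718).

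Ccr9, a gut-homing receptor, measured 0.242 and 0.423 scaled CPM at wild type day 0 and 0.803, 0.705 and 0.482 at day 5, and 0, 0.228, 0.389 and 0.476 at knockout day 0 and 0.882, 1.03 and 0.186 at day 5. Its changes of 0.48 ± 0.36 log2 (adjusted p = 0.293) and 0.60 ± 0.30 (0.108) did not pass, though the latter was called without replicate 3 of knockout day 5 (0.95, 0.011) and with library size as the only scaling (0.78, 0.0355), and its exons overlap other genes on both strands. Ccr10, a skin and mucosal homing receptor, measured 0.847 and 1.45 at wild type day 0 and 0.756, 0.705 and 0.526 at day 5, and 0.371, 0.607, 0.648 and 0.893 at knockout day 0 and 1.1, 0.0493 and 1.16 at day 5. Its changes of -0.49 ± 0.41 (0.356) and 0.03 ± 0.34 (0.954) did not pass. Ccr3 (0 to 3 reads per library), Ccr6 (0 to 6), Ccr8 (0 to 3), Cxcr1 (0 to 5) and Cxcr5 (0 to 8) could not be tested. Ccr6 and Ccr3 were thus near 0 where their ligands Ccl20, Ccl11 and Ccl24 were measured.

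**Figure D3:**
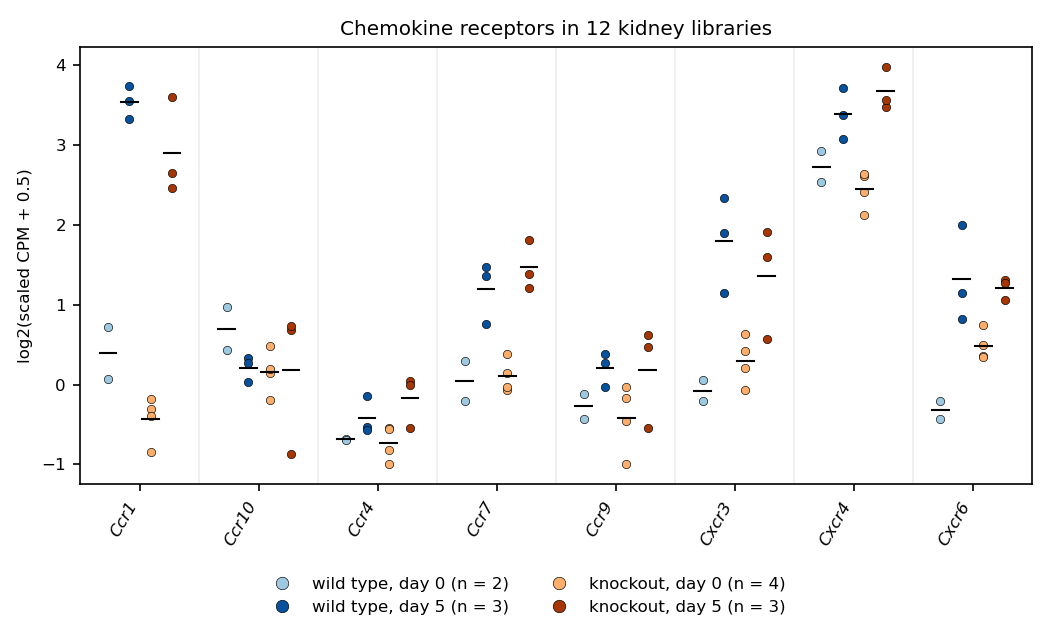
Level of 8 tested receptors in the 12 libraries, as log2(scaled CPM + 0.5), with a point for each library and a bar for the group mean, coloured by group. Ccr1 shows the widest gap between day 0 and day 5. For Ccr10 the day 5 libraries are lower in wild type and overlap those of day 0 in knockout.

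Levels of different members were compared as scaled CPM per kb of exonic sequence. This length joins all annotated exons of a gene and can exceed that of a single transcript. For Cxcl1, Cxcl2, Cxcl3 and Cxcl10 it equals the whole span of the gene, so their values per kb may be too low and their places are uncertain. At wild type day 0 the order was led by Cxcl12 (20.4 per kb), Cxcl14 (16.2), Cxcl16 (13.1) and Ccl27a (7.91), all ligands outside the inflammatory groups. At wild type day 5 it was Cxcl16 (52.1 per kb), Cxcl1 (50.2), Cxcl14 (45.4), Ccl6 (31.1), Ccl2 (28.7), Ccl5 (23.7), Cxcl2 (22.3) and Ccl9 (15.8), with Cxcl12 in place 9 (14.3). Cxcl1 moved from place 12 to place 2 and Cxcl2 from 24 to 7 of the 38. In knockout kidneys at day 5 the first 6 stood in the same order, at 51.7, 49.1, 34.3, 32.6, 30.0 and 21.0 per kb. Neighbours in these orders lie closer than the spread of their libraries: Cxcl1 alone ranged from 58 to 135 scaled CPM in wild type kidneys. Summed over all members, the level was 301 to 334 scaled CPM at wild type day 0, 816 to 902 at wild type day 5, 365 to 446 at knockout day 0 and 754 to 1002 at knockout day 5.

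Knockout of Sprr2f was not accompanied by a called difference in any member. At day 0 the knockout minus wild type differences ran from -0.82 to 1.25 log2 (SE 0.10 to 0.65), the smallest adjusted p was 0.216, and 0 of 38 members were called, against 0.0166% of all genes called lower and 0.0% higher. At day 5 they ran from -1.94 to 0.76 log2 (SE 0.10 to 0.61), the smallest adjusted p was 0.656, and 0 members were called, against 0.0% of all genes in either direction. The difference between genotypes in the change with obstruction ran from -1.95 to 0.66 log2 (SE 0.14 to 0.90), the smallest adjusted p was 0.44, and 0 members were called, against 0.00553% of all genes called higher and 0.0% lower. At an unadjusted p under 0.05 there were 3, 5 and 5 of the 38 members in these 3 comparisons by limma, where 15%, 5.67% and 7.59% of all genes had such a p. The counts were 3, 4 and 4 by edgeR (14.4%, 5.69% and 7.83% of all genes), 5, 3 and 5 by DESeq2 (14.0%, 5.49% and 7.31%) and 1, 6 and 3 by limma-voom (13.4%, 6.46% and 6.78%). With so few members, these counts are not read as a result. By any of these tools 0 members were called (DESeq2 gave no adjusted p for 17, 36 and 2 members). The shares of all genes called given above are those of limma. Of 18093 genes, DESeq2 called 229 higher and 146 lower at day 0, 37 and 3 at day 5, and 28 and 9 in the difference in change. By edgeR these counts were 0 and 3, 0 and 0, and 1 and 0, and by limma-voom 0 and 2, 0 and 0, and 1 and 0. A p that misses the threshold does not show that the genotypes were alike.

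The members with an unadjusted p under 0.05 are given as values. At day 5, Ccl4 was lower in knockout by -0.95 ± 0.25 log2, Cxcl3 by -1.94 ± 0.58, Cxcl9 by -1.58 ± 0.61 and Ccl3 by -1.12 ± 0.46, while Ccl24 differed by 0.76 ± 0.34. The adjusted p-values of the 5 were 0.656 to 0.867. For Ccl4 and Cxcl9 all 3 knockout day 5 libraries lay below the 3 of wild type, as for 4.21% of all genes, and for 0 members they lay above (5.72%). At day 0 they included Ccr1 (-0.82 ± 0.32 log2) and Cxcr6 (0.81 ± 0.28), each with no overlap between the 2 wild type and 4 knockout libraries. Such a lack of overlap at day 0 was found for 6 members higher in knockout (12.9% of all genes) and 1 lower (12.4%). In the change with obstruction they included Ccl4 (-1.45 ± 0.37), Cxcl14 (-1.01 ± 0.41), Cxcl3 (-1.95 ± 0.85) and Cxcr6 (-0.92 ± 0.38). This difference in change was negative for 26 of 38 members, with a median of -0.34 log2, where 49.3% of all genes were negative and the median was 0.00. At day 0 the knockout minus wild type difference was positive for 28 members (median 0.09 log2), and at day 5 it was negative for 27 (median -0.13). The day 0 part sets 2 wild type libraries, 1 Y-linked and 1 Xist, against 4 Y-linked knockout libraries. All members share the same libraries, so these counts are not separate observations and are not read as a result. Neutrophil marker sums were lower in knockout than in wild type day 5 libraries (13.8 to 44.3 against 50.8 to 78.0 scaled CPM). The sums overlapped for macrophage (1091 to 1566 against 1041 to 1317) and T cell markers (20.4 to 36.1 against 21.7 to 41.4). They also overlapped for NK cell (4.83 to 6.32 against 5.56 to 5.81) and dendritic cell markers (52.1 to 73.3 against 59.1 to 73.8). The part of these cells in the genotype values was not tested.

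**Figure D4:**
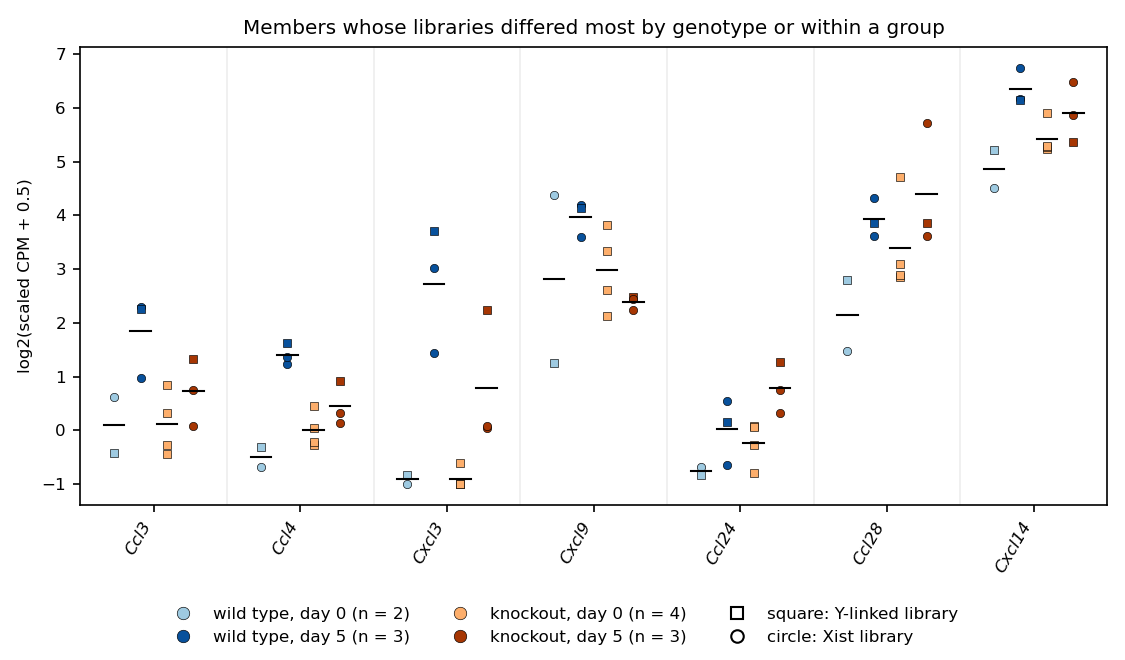
Level of 7 members in the 12 libraries, as log2(scaled CPM + 0.5), with a point for each library, squares for Y-linked and circles for Xist libraries, and bars for group means. Ccl4 and Cxcl9 are lower in the 3 knockout than in the 3 wild type day 5 libraries without overlap, Cxcl9 is spread widely at wild type day 0, and 1 library stands high on each knockout day for Ccl28.

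In each knockout group 1 library was highest for most members called in knockout. How often that library was highest over all genes was not counted. At day 0, replicate 1 was highest for 17 of the 26 members called in knockout, with a sum over all members of 446 scaled CPM against 365 to 374 in the other 3. At day 5, replicate 2, the Y-linked library, held the highest level of its group for 18 of the 26 members called in knockout, and replicate 3 the lowest for 13. Macrophage marker sums were 1160, 1566 and 1091 scaled CPM in replicates 1, 2 and 3, neutrophil marker sums 21.4, 44.3 and 13.8, and T cell marker sums 31.4, 20.4 and 36.1. The order of the first 2 lists is that of the summed monocyte-attracting ligands (49.2, 91.9 and 26.6), and T cell markers had the reverse order. Whether sex pattern, cell content or another property of the library sets this was not tested. Compared within libraries of the same sex-chromosome pattern, the median difference of the 28 wild type calls was 2.73 log2 in the Y-linked pair and 2.37 in the 3 Xist libraries, and that of the 26 knockout calls was 2.77 in Y-linked libraries. Neither these medians nor the directions are separate support, because the members were called on these same libraries. The day 5 libraries of the called members lay above those of day 0 in all but Cxcr3 in knockout. No knockout day 0 library carried Xist, so the other 2 knockout day 5 libraries had no counterpart of their pattern.

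Where other genes of the chemokine pathway were called, they moved in the same direction. Of 13 tested chemokines and receptors outside the numbered CC and CXC symbols, 7 rose in wild type and 8 in knockout, and 0 fell. The other 6 in wild type and 5 in knockout were not called. Over all genes tested, 24.5% rose in wild type and 29.4% in knockout. Cx3cr1, the fractalkine receptor of monocytes and resident macrophages, rose by 3.36 ± 0.26 log2 in wild type and 2.35 ± 0.22 in knockout, and its ligand Cx3cl1 by 1.64 ± 0.28 and 1.15 ± 0.24. The platelet chemokines Pf4 (2.92 ± 0.43 and 2.60 ± 0.36) and Ppbp (3.22 ± 0.49 and 1.31 ± 0.41) rose as well. Ackr3, the scavenger receptor of Cxcl12, did not pass the test (0.44 ± 0.21 and 0.18 ± 0.18).

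Of 28 genes that act downstream of chemokine receptors, 22 rose in wild type and 25 in knockout, and 0 fell, with medians of 1.06 and 1.16 log2. All genes tested had medians of 0.04 and 0.07 log2, with 24.5% and 29.4% called higher. Pik3cd, a phosphoinositide 3-kinase subunit of leukocytes, rose by 2.59 ± 0.15 and 2.01 ± 0.13, Vav1, a guanine nucleotide exchange factor for Rac, by 2.71 ± 0.19 and 2.25 ± 0.16, and Was, which links to actin assembly, by 2.55 ± 0.19 and 1.91 ± 0.16. The beta-arrestin Arrb2, which ends receptor signalling, rose by 1.69 ± 0.12 and 1.63 ± 0.10. Several of these genes are expressed mainly in leukocytes, whose markers rose too, and the part of these cells in the levels was not tested.

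Of 18 tested cytokines and regulators that induce chemokines, 15 rose in wild type and 13 in knockout, and 0 fell. Nfkbiz, an inhibitor-family cofactor of NF-kB, rose by 2.66 ± 0.16 log2 in wild type and 2.71 ± 0.13 in knockout, Tlr2 by 3.12 ± 0.22 and 3.17 ± 0.18, Nfkb2 by 2.06 ± 0.17 and 2.19 ± 0.15 and Nfkb1 by 1.33 ± 0.09 and 1.46 ± 0.08. The cytokine Il1b rose by 3.08 ± 0.38 and 1.52 ± 0.32. Il6 rose in wild type (1.78 ± 0.47) and did not pass in knockout (0.43 ± 0.39), and Tnf passed in neither (1.51 ± 0.69 and 0.82 ± 0.57).

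Markers of resident cells changed too. Of 8 proximal tubule markers, 8 fell in wild type and 7 in knockout, with sums of 22523 to 61799 scaled CPM over the day 0 libraries and 3621 to 10946 over the day 5 libraries. Of 8 markers of other nephron segments, 5 and 6 fell. All 7 fibroblast markers rose in both genotypes, with sums of 302 to 476 at day 0 and 1903 to 3152 at day 5, and of 8 endothelial markers 1 rose and 1 fell in each genotype. Of 5 tested B cell markers, 2 rose in each. Erythroid markers rose for 3 of 4 in wild type and 0 of 4 in knockout, with sums of 228 to 3684 scaled CPM at wild type day 5 and 90.2 to 270 in the other groups. Of 2 tested lymph node stroma markers 1 rose in each genotype, of 3 adipocyte markers 0 were called, and of 2 skeletal muscle markers 1 fell in wild type. The part of these cells in the chemokine levels was not tested.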

How the data were processed

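Left kidney RNA was sequenced as mRNA in 12 libraries, per the labels' protocols. The submitters' processing notes name STAR, SAMtools, HTSeq and GRCm38.p6, with versions not given in the sources used here. The deposited table, described as counts, holds CPM, reads scaled to a common library total, made by the authors. All 665652 values checked were whole multiples (100.0%, tolerance 0.001) of what 1 read was worth, so reads were recovered, 16567256 to 19398882 per library. Since the unit was CPM, the main test was limma 3.58.1 (R 4.3.3) on log2 of TMM-scaled CPM plus 0.5, fitted over all 4 groups. Genes were kept by the edgeR 4.0.16 filter with a minimum count of 10 and a total of 15 (18093 genes), and p-values were adjusted by Benjamini-Hochberg at 0.05. edgeR, DESeq2 1.42.0 and limma-voom were run on recovered reads as alternatives, beside other scalings, added CPM of 0.1 and 1, other filters, a sex-chromosome covariate and leaving out each library. The scripts were tested on simulated data.

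Members follow the symbol rule, and members, lists and roles were chosen with earlier results of these data known. The rule named members called in either genotype with a mean log2 CPM of at least 0 (up to 5 per role), all tested receptors, and up to 4 genes of each list by adjusted p or set beside a result; all other ligands were named after their values were seen. The results of 1 member are not reported here, though it is part of the counts. Ratios of reads have exact 95% intervals and a floor of 3 reads over the group, which cover counting error only. Positions are from GENCODE M21 (GRCm38), and promoters from RefSeq (GRCm38.p6). Shared sequence was found by searching each member's 50-base stretches in the other genes' transcripts. Samples fall into groups by their labels, and no column of the table lacked a sample.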

Additional observations from a re-analysis of the deposited data

Results flagged for a closer look

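Of 38 knockout day 0 groups of 4 libraries checked, 1 for each tested member, 5 had a library far from the other 3, with a gap over 0.829 of the group's range. Chance flags about 1 in 20 groups of continuous values, a rate that does not hold for Cxcl3, Cxcl5 and Cxcl13, whose other 3 libraries had 0 reads, so that any single read is flagged. Replicate 2 stood apart for Ccl28 at 25.8 scaled CPM and for Cxcl3 at 0.152. Replicate 1 stood apart for Cxcl14 at 59.5 scaled CPM. Replicate 4 stood apart for Cxcl13 at 0.298 and for Cxcl5 at 0.0595 scaled CPM. The values for Cxcl3 and Cxcl5 are 2 reads and 1 read.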

How the results depend on the processing

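Over all settings, 23 to 30 members rose in wild type and 22 to 32 in knockout, and 20 of 28 and 19 of 26 calls held in every setting. Library size alone moved the median gene by 0.37 log2 in wild type and 0.38 in knockout, with 47.3% of all genes higher and 11.1% lower in wild type and 55.9% and 12.0% in knockout. The count of members that fell, 0 as reported, was 1 in wild type in the Y-linked libraries alone (Cxcl12). In knockout it was 1 with the sex-chromosome covariate (Cxcl12), 2 in the Y-linked libraries alone (Cxcl12 and Ccr10) and 0 to 1 when 1 library was left out (Cxcl12, without replicate 3 of knockout day 5). The fits on Y-linked or Xist libraries alone were added after seeing the data; the Y-linked one has 1 library in each group but knockout day 0, and assumes they vary like that group.

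The sign turned only for values that did not pass the test as reported. Wild type Cxcl13 was 0.033 with library size alone, 0.080 with limma-voom, 0.015 with the covariate and -0.73 to 0.48 with 1 library left out. Ccl25 was 0.24 in wild type and 0.32 in knockout with library size alone, and -0.25 to 0.022 in knockout with 1 library left out. Wild type Cxcl9 was -0.48 in the Xist libraries and -0.42 to 2.72 with 1 library left out. Ccl27a was -0.068 in wild type in the Y-linked libraries. In knockout Ccl27a was -0.036 with RLE, -0.037 with DESeq2, -0.014 with no filter, -0.057 with the covariate, -0.015 in the Y-linked libraries and -0.037 to 0.018 with 1 library left out. Knockout Cxcl14 was -0.046 in the Y-linked libraries. Knockout Ccr10 was -0.41 with limma-voom, -0.21 with 0.1 CPM added, -0.52 with the covariate, -0.97 in the Y-linked libraries and -0.24 to 0.55 with 1 library left out. The cause was not tested.

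No paired analysis was possible because the replicate numbers were given in accession order and the columns carry none that pair libraries across groups. Members with few reads, such as Ccr4 and Ccl24, are limited by depth.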
